A study of Homo sapiens with 18 samples.

Results

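The pro-apoptotic BCL2 family was followed in SJSA osteosarcoma cells, a human line in which the genes for MDM2 and CDK4 are amplified. It comprised 10 of the 23368 gene rows, taken by symbol: BAX, BAK1, BID, BCL2L11, BBC3, PMAIP1, BAD, BMF, BIK and HRK. RNA-seq libraries covered 6 groups of 3 replicates, 18 libraries in all. Cells received Nutlin, an antagonist that keeps MDM2 from binding p53, and PD0332991 (Palbociclib), an inhibitor of CDK4 and its relative CDK6. The solvent control is named DMSO, and the group named Nutlin had 20 µM of the drug for 6 h. PD24 had 10 µM PD0332991 for 24 h, after which it was taken away for the rest of the 30 h schedule, whereas PD30 kept it for the full 30 h. N+PD24 and N+PD30 combined the same PD0332991 treatments with Nutlin in the last 6 h, so that Nutlin met an inhibitor already removed in N+PD24 and one still present in N+PD30. A supplementary scheme of this timing, drawn for immunoblots of other cell lines, also writes a lower Nutlin dose beside 20 µM. The dose given here is that of the labels. All groups came from 1 cell line, and the study calls its replicates biological without saying whether they were separate cultures, so p-values measure the spread between these libraries. In bulk RNA, fewer cells carrying a transcript and less of it per cell cannot be told apart.

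These proteins decide whether the outer mitochondrial membrane stays closed. BAX and BAK1 are the effectors, which assemble into pores and let cytochrome c escape. The remaining members are called BH3-only, since the BH3 helix is their main likeness in sequence to BCL2, although BID is folded much like BAX. BID, BCL2L11 (BIM) and BBC3 (PUMA) can engage the effectors directly as well as neutralise BCL2-like survival proteins, while PMAIP1 (NOXA), BAD, BMF, BIK and HRK mainly occupy survival proteins, each with its own partners. BAX, BBC3 and PMAIP1 are classical p53 target genes, and BCL2L11, BMF and HRK are known for control by stress kinases and withdrawal of growth factors.

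Because Nutlin acts through p53, the sequence around each transcription start was searched for the p53 response element, which is built from a pair of adjoining 10-base units with the core CNNG, where each N is A or T. The window ran 1000 bases to each side of the canonical start on GRCh37, on both strands, and a match needed both cores and at most 3 mismatches elsewhere in the 20 bases. BBC3 and PMAIP1 held a match, against 3.14% of the 19894 protein-coding genes searched, and the other 8 members held none. They are shown here because these p53 target genes moved in opposite directions with Nutlin, with capitals marking the cores.
BBC3: ctgCAAGtcctgaCTTGtcc
PMAIP1: gggCTTGtttaccCAAGtct
The BBC3 match lay at chr19:47734577-47734596 on the minus strand, at position -140 from the canonical start, with 3 mismatches. That is inside the annotated span of the gene, which other transcripts begin farther upstream. The PMAIP1 match lay at chr18:57566781-57566800 on the plus strand, at -447 and outside the gene, with 2 mismatches. An exact single 10-base unit is far less selective, as 35.8% of genes held one in the same window. Among members without the full element, the units of BAX, BAK1 and HRK are printed with 5 flanking bases on each side, since these are the members that rose most often beside BBC3. Capitals mark the unit.
BAX: gttagAGACAAGCCTgggcg
BAK1: gggcgGGACATGCTCctggg
HRK: acggcAAACAAGCCTttttc
They lay at chr19:49457712-49457721 (plus strand, -420), chr6:33548117-33548126 (minus strand, -73) and chr12:117319587-117319596 (minus strand, -350), each upstream of the gene. BAD held 1 exact unit and BIK held 2, whereas BID, BMF and BCL2L11 held none. A match of letters says nothing about binding, and a window without one says only that these letters are not in it.

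Library totals ran from 12704845 reads on genes in N+PD30 replicate 1 to 40231041 in PD24 replicate 3, with a median of 29608936. Levels are counts-per-million (CPM) of each library's own total of reads on genes. Readout genes of both drugs stood at clearly different levels. CDKN1A, the p53 target encoding p21, had 3984 ± 146 CPM in Nutlin against 184 ± 38.0 in DMSO (SD, n = 3), and CCNA2, a cyclin of dividing cells, had 4.51 ± 0.731 CPM in PD30 against 216 ± 2.32. Of 9 osteoblast lineage markers, 6 had a median above 1 CPM, and SP7, BGLAP and IBSP stayed near 0. The sum of the 9 ran from 2847 to 6495 CPM over the libraries. COL1A1 and SPARC had the largest means in it, at 1728 and 1430 CPM in DMSO. Summed markers of leukocytes, epithelium and endothelium reached at most 16.5, 3.06 and 15.4 CPM.

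Over the 8 comparisons between a pair of groups, the members did not move together. The counts that follow come from fits without pairing of replicate numbers. Where the numbers paired libraries, the paired fits given further on added calls. Among these were BBC3 as lower in N+PD24 against Nutlin and BID as lower in N+PD24 against PD24. BBC3 and BAK1 passed the test as higher in 4 comparisons each and as lower in none. BCL2L11 passed as lower in 4 and BMF as lower in 3, neither ever as higher. BAX and PMAIP1 passed in both directions, BAX as higher in 3 and lower in 2, and PMAIP1 as higher in 2 and lower in 2. BAD passed once, as higher, BIK once, as lower, and BID in none of 8. HRK passed as higher in 4, in all of which it entered the test through the libraries with PD0332991, where it is high. The summed level of the 10 members was 236 to 248 CPM in DMSO, 339 to 398 in Nutlin, 209 to 239 in PD24, 189 to 234 in PD30, 322 to 368 in N+PD24 and 360 to 414 in N+PD30. By group mean, BAX was the largest part of it in all 6 groups.

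Nutlin alone was set against DMSO to see which members answered p53 activation. Of the 9 members tested, 4 passed an adjusted p of 0.05, 2 as higher and 2 as lower. Of all 15766 genes tested, 54.6% passed, 26.6% as higher and 28% as lower, so the members' share was not above that of other genes. A log2 fold change over 1 in addition left 3 members, against 20.8% of all genes. The median log2 fold change of the members was 0.02, and that of all genes 0.03. HRK was too low in both groups to be tested.

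BAX, the pore-forming effector, was at 77.9, 82.5 and 78.7 CPM in DMSO and at 209, 191 and 229 CPM in Nutlin. The groups lay far apart, and the log2 fold change was 1.52 ± 0.09 (SE, edgeR, adjusted p = 1.8e-06). BBC3 stood at 4.21, 2.36 and 1.71 CPM in DMSO and at 12.0, 16.1 and 24.0 CPM in Nutlin. Every Nutlin library was above every DMSO library, although replicates within each group differed among themselves, and the log2 fold change was 2.76 ± 0.33 (edgeR, adjusted p = 8.3e-05). Taken by replicate number, the ratio of Nutlin to DMSO was 2.86, 6.81 and 14.0.

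PMAIP1, which occupies MCL1, fell. It was at 55.6, 56.2 and 57.5 CPM in DMSO and at 30.3, 25.0 and 32.2 CPM in Nutlin, without overlap, with a log2 fold change of -0.83 ± 0.10 (edgeR, adjusted p = 0.00012). BCL2L11, the activator BIM, fell as well. Its levels were 6.73, 6.17 and 8.70 CPM in DMSO and 3.54, 2.73 and 3.35 CPM in Nutlin, with a log2 fold change of -1.04 ± 0.18 (edgeR, adjusted p = 0.00097). The other members stayed below the threshold, at log2 fold changes of 0.19 for BAK1, 0.41 for BAD, 0.02 for BMF, -0.07 for BID and -0.36 for BIK. For BAK1 the 95% interval of the log2 fold change was -0.04 to 0.41, and for BMF -0.61 to 0.65.

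PD0332991 without Nutlin was compared with DMSO for each schedule, and both comparisons share the DMSO libraries with the one just described. With the drug present for 30 h, 4 of 10 members passed, 1 as higher and 3 as lower, against 48.3% of all genes tested (22.9% higher, 25.4% lower). With the drug removed after 24 h, 5 of 10 passed, 2 as higher and 3 as lower, against 38.3% (17.5% higher, 20.8% lower). A log2 fold change over 1 in addition was met by 4 members in PD30 and by 2 in PD24, against 15.2% and 12.6% of all genes. HRK (Harakiri), a BH3-only protein best known from neurons, was nearly silent without the inhibitor. Its reads numbered 5, 7 and 6 in DMSO, 68, 84 and 108 in PD30, and 19, 32 and 69 in PD24. In CPM that was 0.151, 0.243 and 0.194 in DMSO, 2.34, 2.34 and 3.07 in PD30, and 0.645, 1.35 and 1.72 in PD24. All libraries with the drug were above all DMSO libraries. The pooled CPM was 13.4 times that of DMSO in PD30 (95% exact interval 8.29 to 22.9, counting error only) and 6.62 times in PD24 (4.02 to 11.6). The log2 fold change was 3.69 ± 0.28 in PD30 (edgeR, adjusted p = 5.4e-06) and 2.68 ± 0.44 in PD24 (adjusted p = 0.0015). HRK entered both tests only through the PD0332991 libraries, where it is high.

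BCL2L11 went down in both schedules. PD30 libraries held 1.24, 1.33 and 1.14 CPM, all below the lowest DMSO value of 6.17, with a log2 fold change of -2.55 ± 0.19 (edgeR, adjusted p = 5.3e-06). PD24 libraries held 1.87, 2.40 and 3.93 CPM, also below DMSO, with a log2 fold change of -1.36 ± 0.26 (adjusted p = 0.0038). BMF, a sensitiser tied to the cytoskeleton in healthy cells, was at 7.12, 6.97 and 11.5 CPM in DMSO and at 2.82, 2.98 and 4.68 CPM in PD30. It fell by 1.30 ± 0.25 on the log2 scale in PD30 (edgeR, adjusted p = 0.0024), whereas in PD24 it was at 5.16, 5.40 and 8.95 CPM and the log2 fold change of -0.36 did not pass (adjusted p = 0.30). BIK, a sensitiser of the endoplasmic reticulum, rested on 2 to 16 reads in each of the 18 libraries. DMSO libraries had 14, 14 and 15 reads of it and PD30 libraries 7, 7 and 6, a log2 fold change of -1.21 ± 0.32 (edgeR, adjusted p = 0.011) that was not called by DESeq2 (-1.22, adjusted p = 0.090).

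BAK1, the other effector, rose in PD24 and did not pass in PD30, and its difference between PD24 and PD30 was not tested. It was at 45.1, 46.6 and 40.4 CPM in DMSO, 58.3, 67.2 and 59.8 CPM in PD24, and 46.6, 53.5 and 38.5 CPM in PD30. The log2 fold change was 0.51 ± 0.11 in PD24 (edgeR, adjusted p = 0.0070) and 0.06 in PD30 (adjusted p = 0.75). BAX was slightly lower in PD24, at 59.0, 62.1 and 66.6 CPM, a log2 fold change of -0.33 ± 0.09 (edgeR, adjusted p = 0.021). Without DMSO replicate 2 or 3 that adjusted p became 0.11 or 0.053. PMAIP1 passed in PD24 (-0.60 ± 0.19, edgeR, adjusted p = 0.035), but its libraries ran 50.3, 28.8 and 30.8 CPM, and the adjusted p rose to between 0.068 and 0.10 on leaving out any DMSO library or PD24 replicate 2 or 3. In PD30 it was at 29.2, 32.7 and 65.6 CPM and did not pass (-0.43, adjusted p = 0.20). There, leaving out PD30 replicate 3 gave -0.87 with an adjusted p of 0.00020.

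BBC3 was not detectably altered by the inhibitor alone. It was at 1.52, 2.14 and 3.55 CPM in PD30 and at 2.27, 2.61 and 1.42 CPM in PD24, overlapping DMSO in both, with 95% intervals of the log2 fold change of -1.06 to 0.63 and -1.21 to 0.42. BID, the member that caspase-8 cleaves to link death receptors to mitochondria, ranged from 18.1 to 31.0 CPM over the DMSO, PD24 and PD30 libraries. BAD, which growth factor signalling holds in check by phosphorylation, ranged from 13.2 to 38.2 CPM over the same libraries. Neither passed in either schedule.

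**Figure D1:**
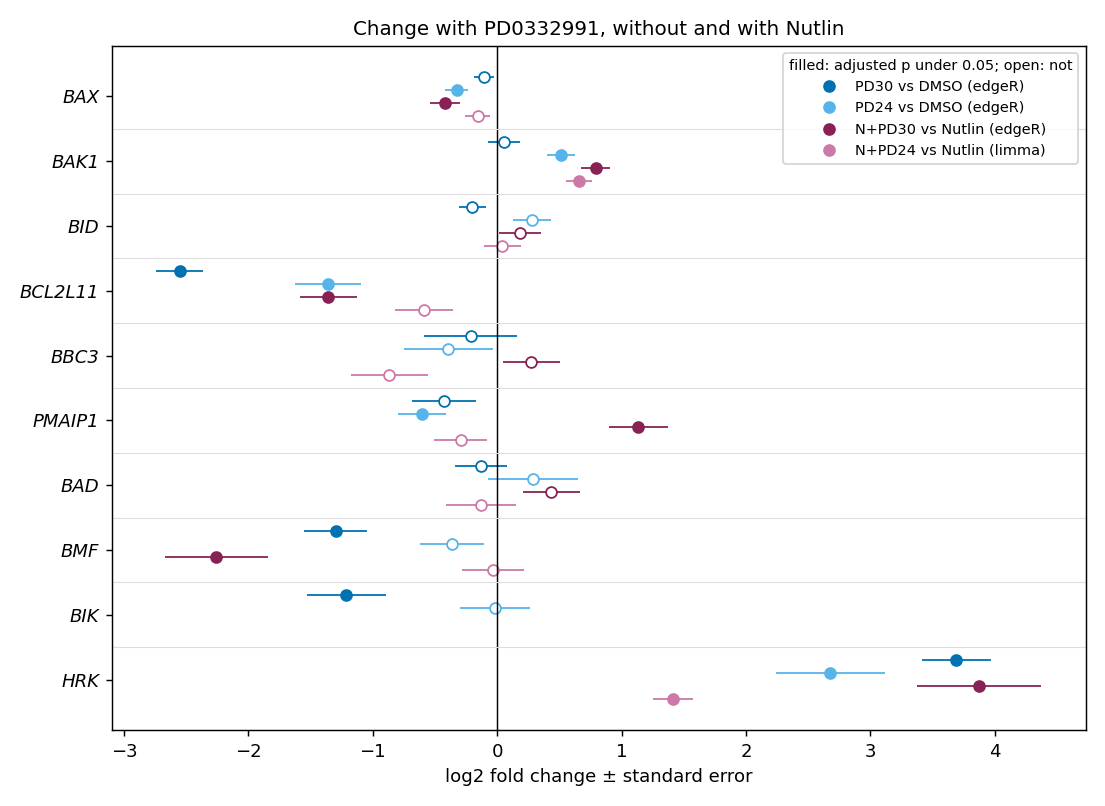
Log2 fold change of each member with PD0332991, for both schedules, without Nutlin (against DMSO) and with Nutlin (against Nutlin). Points are fitted values, lines the standard error, filled points passed an adjusted p of 0.05 and open ones did not; members without a point were not tested in that comparison. BCL2L11 lies left of 0 and HRK right of 0 in all 4, whereas PMAIP1 lies right of 0 only in N+PD30; the HRK value of N+PD24 is on the log2(CPM + 0.5) scale, which understates low genes.

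The question at the centre of the design was how CDK4 inhibition changes the answer to Nutlin, which the interaction further on tests. Comparisons of a combination with Nutlin hold the inhibitor's own effect together with any change in that answer. With the inhibitor still present, N+PD30 was compared with Nutlin, and 6 of 9 members tested passed, 3 as higher and 3 as lower, against 49% of all genes tested (24.3% higher, 24.7% lower). A log2 fold change over 1 in addition left 4, against 22.3%. The p53 targets of the family did not go the same way. BAX was at 152, 177 and 153 CPM in N+PD30, below all Nutlin libraries, a log2 fold change of -0.42 ± 0.12 (edgeR, adjusted p = 0.015). Without Nutlin replicate 3 the value was -0.38 with an adjusted p of 0.0501. BBC3 was at 16.1, 23.0 and 25.3 CPM, with 2 libraries inside the range of the Nutlin libraries and the highest above it, and the log2 fold change of 0.28 ± 0.23 did not pass (adjusted p = 0.35, 95% interval -0.24 to 0.79). Beside them, CDKN1A fell by 0.78 ± 0.14 and MDM2 by 1.70 ± 0.17 on the log2 scale (edgeR, adjusted p = 0.0010 and 2.5e-05). In PD30 against DMSO, without Nutlin, they were also lower, at -0.57 and -0.98 (edgeR, adjusted p = 0.010 and 5.5e-05). In the interaction described further on, CDKN1A did not pass (-0.17, edgeR, adjusted p = 0.60), whereas MDM2 did (-0.68, adjusted p = 0.033).

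PMAIP1 went up. N+PD30 libraries held 43.6, 56.3 and 98.8 CPM, all above the highest Nutlin library at 32.2, and the log2 fold change was 1.14 ± 0.24 (edgeR, adjusted p = 0.0024). The mean of 66.2 ± 28.9 CPM (SD, n = 3) in N+PD30 compared with 56.5 ± 0.978 in DMSO. BAK1 went up too, from 44.2, 43.4 and 50.2 CPM in Nutlin to 80.4, 85.5 and 79.1 CPM in N+PD30, with no overlap and a log2 fold change of 0.79 ± 0.12 (edgeR, adjusted p = 0.00030). HRK had 3, 1 and 4 reads in the Nutlin libraries and 9, 50 and 37 in N+PD30. Its pooled CPM was 16.7 times higher (95% exact interval 8.13 to 39.7, counting error only), and the log2 fold change was 3.88 ± 0.50 (edgeR, adjusted p = 0.00012). HRK entered this test only through the N+PD30 libraries.

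BMF showed the steepest fall of the family in this comparison. It was at 6.49, 5.56 and 11.9 CPM in Nutlin and at 0.708, 1.24 and 3.05 CPM in N+PD30, so that every N+PD30 library was below every Nutlin library. The log2 fold change was -2.26 ± 0.42 (edgeR, adjusted p = 0.0012), and it ran from -2.94 without N+PD30 replicate 3 to -1.89 without Nutlin replicate 3. BCL2L11 was at 1.10, 1.34 and 1.36 CPM in N+PD30, also below Nutlin, with a log2 fold change of -1.36 ± 0.23 (edgeR, adjusted p = 0.00068). These N+PD30 levels rest on few reads, 9 to 63 per library for BMF and 14 to 40 for BCL2L11. BAD and BID were at log2 fold changes of 0.43 and 0.18 and did not pass, and BIK was too low to be tested.

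With the inhibitor removed before Nutlin was added, N+PD24 was compared with Nutlin by limma, so its count is not set against that of N+PD30, which came from edgeR. Of 9 members tested, 2 passed, both as higher, against 35.1% of all genes tested (15.6% higher, 19.5% lower). With a log2 difference over 1 in addition 1 remained, HRK, against 9.24%. The fit with the replicate block described further on called 5 members, beside 8291 of the 15263 genes tested. BAK1 was at 71.4, 69.3 and 72.6 CPM in N+PD24, above all Nutlin libraries, a difference of 0.66 ± 0.10 on the log2(CPM + 0.5) scale (limma, adjusted p = 0.00097). HRK had 25, 37 and 32 reads in N+PD24, or 1.02, 1.00 and 1.16 CPM, and entered the test only through these libraries. The limma difference for HRK was 1.41 ± 0.16 (adjusted p = 0.00013), a scale on which so low a gene is compressed. Its pooled CPM was 11.6 times that of Nutlin (95% exact interval 5.64 to 27.6), and edgeR on the recovered reads gave a log2 fold change of 3.54 (adjusted p = 0.00017).

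BBC3 was lower in N+PD24 than in Nutlin in each numbered replicate. It was at 5.41, 8.31 and 14.7 CPM against 12.0, 16.1 and 24.0, ratios of 0.450, 0.518 and 0.614. The difference of -0.87 ± 0.31 did not pass without pairing (limma, adjusted p = 0.053). Same-numbered libraries of these groups deviated together, and with the replicate number as a block the same difference had an adjusted p of 1.8e-07 (limma). The block likewise brought PMAIP1 (-0.29, adjusted p = 0.028) and BCL2L11 (-0.59, adjusted p = 0.0042) past the threshold, for 5 members in place of 2. Over all genes the block called 8291 in place of 5355. BAX was at 174, 184 and 195 CPM and passed in neither fit (-0.16 ± 0.10, adjusted p = 0.26 without the block).

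N+PD30 was then compared with N+PD24, groups that differ in whether the inhibitor was present during the Nutlin hours. They differ also in how long it was given, and PD30 was not tested against PD24. A difference between the schedules that holds without Nutlin therefore cannot be told apart here. In this comparison 3 of 9 members tested passed, 2 as higher and 1 as lower, against 32.4% of all genes tested (16.9% higher, 15.5% lower). All 3 differed by more than 1 on the log2 scale, against 9.77% of all genes. BBC3 was higher in N+PD30 by 1.13 ± 0.29 on the log2(CPM + 0.5) scale (limma, adjusted p = 0.016), and its groups did not overlap. Leaving out N+PD24 replicate 2 or N+PD30 replicate 2 raised the adjusted p to 0.055 and 0.054. PMAIP1 was at 29.6, 16.0 and 26.1 CPM in N+PD24 and higher in all N+PD30 libraries, a difference of 1.32 ± 0.29 (limma, adjusted p = 0.0076). BMF was at 5.74, 7.09 and 9.32 CPM in N+PD24 and lower in all N+PD30 libraries, a difference of -2.07 ± 0.33 (limma, adjusted p = 0.0016). BAX had a difference of -0.29 ± 0.12 (adjusted p = 0.077), CDKN1A one of -1.07 ± 0.15 (adjusted p = 0.00089). Without Nutlin, the means in PD30 and PD24 were 3.49 and 6.50 CPM for BMF, 42.5 and 36.6 for PMAIP1, and 2.40 and 2.10 for BBC3.

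**Figure D2:**
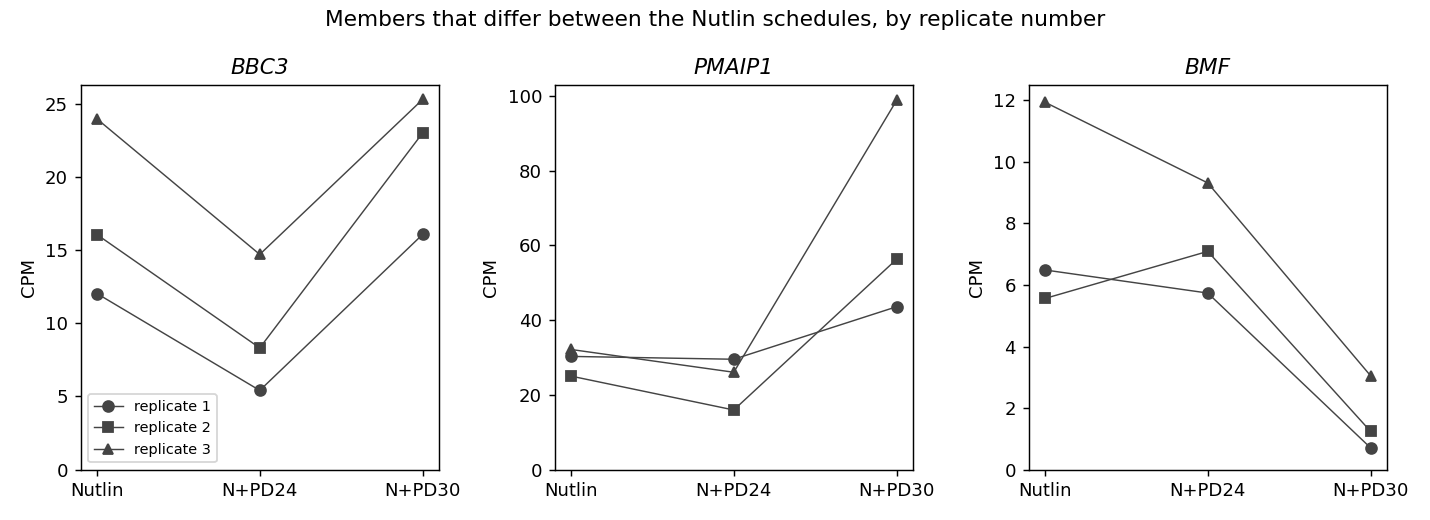
CPM of BBC3, PMAIP1 and BMF in the 3 groups with Nutlin, with lines joining libraries of the same replicate number. BBC3 is lowest in N+PD24 in each replicate, PMAIP1 is highest and BMF lowest in N+PD30 in each replicate; the y axes start at 0 and differ between panels.

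Nutlin was also set against the inhibitor schedule it was combined with. In N+PD30 against PD30, 4 of 9 members tested passed, all as higher, while 14.5% of all genes tested passed, 8.84% as higher and 5.64% as lower. Of these 4, 2 had a log2 fold change over 1, against 3.68% of all genes. The median log2 fold change was 0.73 over the members and -0.01 over all genes. BBC3 went from 1.52, 2.14 and 3.55 CPM in PD30 to 16.1, 23.0 and 25.3 CPM in N+PD30, or by 3.24 ± 0.30 (edgeR, adjusted p = 0.00041). BAX rose from 71.2, 78.0 and 75.4 CPM to 152, 177 and 153 CPM, a log2 fold change of 1.20 ± 0.10 (edgeR, adjusted p = 0.00034). BAK1 also rose here, by 0.92 ± 0.13 (edgeR, adjusted p = 0.0052), with all N+PD30 libraries above all PD30 libraries. BAD went from 16.3, 20.5 and 20.8 CPM to 38.4, 36.7 and 29.9 CPM, its only change past the threshold (0.96 ± 0.16, edgeR, adjusted p = 0.0081). In 1 fit over the 5 groups deposited as counts, its adjusted p was 0.066.

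Libraries of PD30 and N+PD30 with the same number deviated together, although only 4 of 6 correlated best with their own number. The fit with the replicate block called 7 members rather than 4, and over all genes 4439 rather than 2183. The additional members were PMAIP1 (0.74, edgeR, adjusted p = 0.0025), BMF (-1.02, adjusted p = 0.021) and HRK (-0.75, adjusted p = 0.046). PMAIP1 was 1.49, 1.72 and 1.51 times as high in N+PD30 as in PD30 by replicate. BMF was at 0.251, 0.418 and 0.651 of its PD30 level.

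In N+PD24 against PD24, 2 of 9 members tested passed, both as higher, against 36.9% of all genes tested (14.5% higher, 22.5% lower). Both differed by more than 1 on the log2 scale, against 11.8% of all genes. They were BAX (1.65 ± 0.11, limma, adjusted p = 4.0e-06) and BBC3 (1.95 ± 0.30, adjusted p = 0.00052). Numbers paired the libraries here as well, and the block called 5 members, beside 7714 of the 14910 genes tested. The members it added were PMAIP1 (-0.51, limma, adjusted p = 0.0020), BAK1 (0.30, adjusted p = 0.020) and BID (-0.33, adjusted p = 0.028). BID was at 30.2, 31.0 and 22.3 CPM in PD24 and at 19.7, 20.6 and 20.7 CPM in N+PD24.

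**Figure D3:**
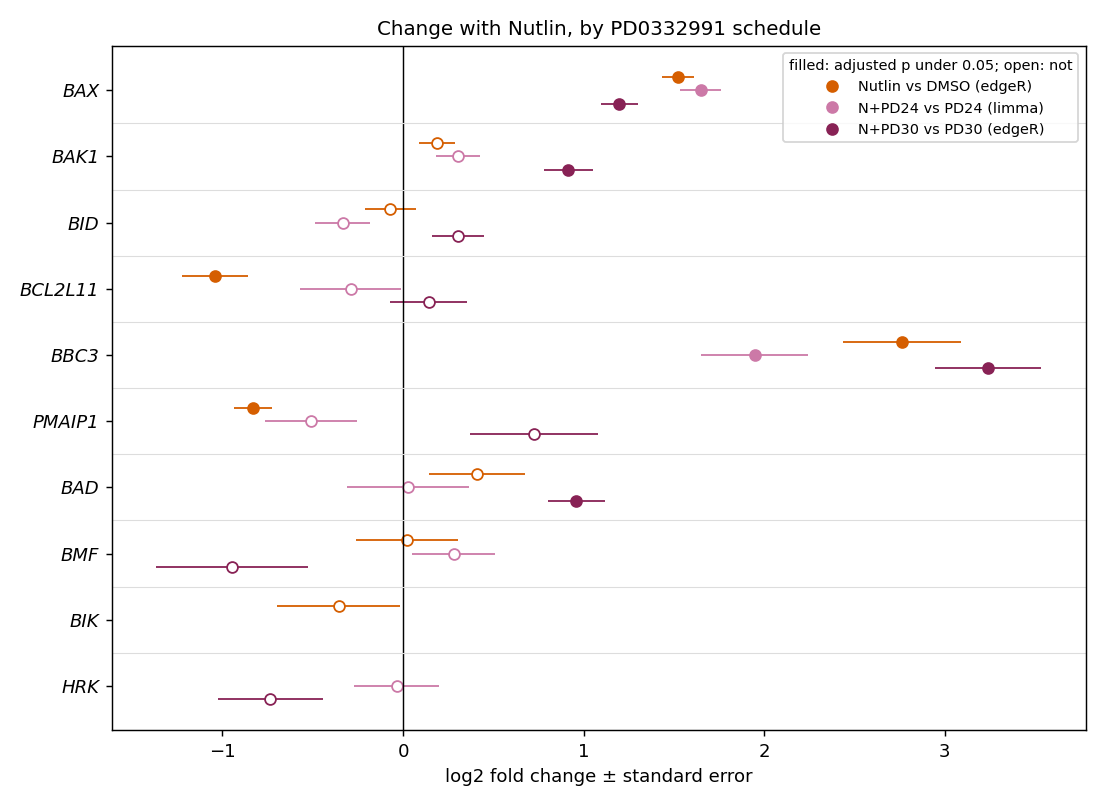
Log2 fold change of each member with Nutlin, in cells without PD0332991 and under each PD0332991 schedule. Points are fitted values, lines the standard error, filled points passed an adjusted p of 0.05 without a replicate block and open ones did not; BIK and HRK have no point where they were not tested. BAX and BBC3 lie right of 0 under all 3 conditions, whereas PMAIP1 lies left of 0 in cells without the inhibitor and right of 0 in PD30.

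Whether the Nutlin response itself differed with the inhibitor present was tested as an interaction over the DMSO, Nutlin, PD30 and N+PD30 libraries. Of 10 members, 3 passed, all with a positive value, against 19.8% of all genes tested (12.8% positive, 7.03% negative). For 2 of them the value was over 1, against 10.2% of all genes. The interaction was 1.60 ± 0.41 for PMAIP1 (edgeR, adjusted p = 0.016), 0.78 ± 0.17 for BAK1 (adjusted p = 0.0060) and 1.23 ± 0.27 for BCL2L11 (adjusted p = 0.0058). For PMAIP1 it set a log2 fold change of -0.83 without the inhibitor beside one of 0.73 with it. The latter did not pass by itself without the replicate block (edgeR, adjusted p = 0.19, 95% interval -0.08 to 1.53). For BAK1 the corresponding values were 0.19 and 0.92. BCL2L11 fell with Nutlin from the DMSO level but was already at 1.14 to 1.33 CPM in PD30, where Nutlin gave 0.14. BBC3 and BAX, the members with the largest Nutlin responses, had interactions of 0.53 ± 0.49 (adjusted p = 0.49, 95% interval -0.53 to 1.58) and -0.27 ± 0.13 (adjusted p = 0.17, 95% interval -0.56 to 0.012). HRK and BMF passed in N+PD30 against Nutlin but not here, with interactions of 0.24 (edgeR, adjusted p = 0.82) and -0.92 (adjusted p = 0.27).

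The same interaction for the removed inhibitor, over DMSO, Nutlin, PD24 and N+PD24, called 0 of 9 members with limma, against 1.47% of all genes tested (0.798% positive, 0.676% negative, and 1.11% past a value of 1). None had an unadjusted p under 0.05, and edgeR on the recovered reads also called 0. The value for BBC3 was -0.59 with a 95% interval of -1.60 to 0.43, and for PMAIP1 0.36 with an interval of -0.32 to 1.04.

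Per kilobase of the canonical transcript, BAX was the most abundant member in all 6 groups, with 100.2 ± 3.09 CPM per kb in DMSO, 264 ± 24.3 in Nutlin and 202 ± 17.6 in N+PD30 (SD, n = 3). In DMSO it was followed by PMAIP1 at 29.7 ± 0.515, then BAD at 22.3 ± 6.67 and BAK1 at 20.3 ± 1.49, whose ranges overlapped, then BID at 10.7 ± 0.411. BMF, BBC3 and BCL2L11 followed at 1.82 ± 0.549, 1.50 ± 0.703 and 1.41 ± 0.260 CPM per kb, within their spread of each other, then BIK at 0.489 ± 0.0370 and HRK at 0.0339 ± 0.00789. In Nutlin BBC3 reached 9.40 ± 3.29 CPM per kb, close to BID at 9.33 ± 1.62. In N+PD30, BAD, BAK1 and PMAIP1 were at 37.7 ± 4.86, 37.6 ± 1.57 and 34.9 ± 15.2, an order inside their spread. Transcript choice in these cells is not known, and the order rests on canonical lengths.

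On GRCh37 the effectors BAX and BAK1 lie at chr19:49458072-49465055 (plus strand) and chr6:33540324-33548070 (minus strand). BBC3 lies at chr19:47724079-47736023 (minus), PMAIP1 at chr18:57567228-57571537 (plus), BCL2L11 at chr2:111876955-111926021 (plus), BMF at chr15:40380091-40401093 (minus) and HRK at chr12:117293949-117319246 (minus). BID and BIK share chromosome 22, at chr22:18216904-18257536 and chr22:43506756-43525718, and BAD lies at chr11:64037302-64052176. Some of these counts may hold reads of neighbours. On the opposite strand BAD shares 404 exon bases with GPR137, BCL2L11 shares 727 with MIR4435-2HG, BMF shares 461 with BMF-AS1, BAK1 shares 91 with GGNBP1 and BBC3 shares 80 with MIR3191. Reads were counted for the reverse strand, but whether the libraries kept strand is not stated, so these partners cannot be told apart from the members. BAK1 has processed copies on chromosomes 11 and 20, BAK1P2 and BAK1P1, among which reads could be split.

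A list of 39 genes that act with the family was counted for context: survival proteins, further BCL2 relatives, caspases, IAPs and their antagonists, partners, and transcription factors of BH3-only genes. In Nutlin against DMSO 36 were tested, of which 4 were higher and 19 lower, 63.9% against 54.6% of all genes. The largest changes were MYC (-1.85), the caspase gene CASP2 (-1.79) and the p53 relative TP73 (-1.64). Of the 4 survival proteins tested there, BCL2L1 was higher (0.61), and BCL2 (-0.93) and MCL1 (-0.51) were among the 3 lower ones. In PD30 against DMSO 9 of 36 were higher and 13 lower (61.1%, against 48.3% of all genes), led by TP73 (-5.81), the IAP gene BIRC5 (-4.77) and the cell cycle factor E2F1 (-4.74). In PD24 against DMSO 4 of 36 were higher and 12 lower (44.4% against 38.3%), and the same 3 genes led, at -5.92, -5.32 and -4.14. All these values are log2 fold changes from edgeR that passed an adjusted p of 0.05.

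In N+PD30 against Nutlin, 7 of the 36 tested were higher and 8 lower (41.7%, against 49% of all genes), with BIRC5 (-4.71), TP73 (-4.68) and E2F1 (-3.86) moving most. In N+PD24 against Nutlin, 4 of 36 were higher and 8 lower (33.3% against 35.1%). In N+PD30 against PD30, 2 of 35 were higher and 2 lower (11.4% against 14.5%), among them APAF1, the scaffold of the apoptosome (1.46), MYC (-2.59) and BCL2 (-1.02). In N+PD24 against PD24, 3 of 35 were higher and 8 lower (31.4% against 36.9%). N+PD30 against N+PD24 had 6 of 35 higher and 7 lower (37.1% against 32.4%), with the stress factor ATF4 (1.72), MYC (-1.55) and the BAX partner MOAP1 (1.50) in front. The interaction of Nutlin with the continued inhibitor was positive for 8 of 37 and negative for 0 (21.6% against 19.8%), led by CASP2 (1.44), ATF4 (1.37) and JUN (1.20), and that with the removed inhibitor was called for 1 of 36 (2.78% against 1.47%), TP73 (2.47).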

How the data were processed

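Total RNA of 18 SJSA libraries was sequenced as single 50-base reads, which the authors aligned to hg19 with TopHat and Bowtie2 and counted per gene with HTSeq 0.6.0. The deposited tables hold raw counts for 5 groups, and for N+PD24 a signal that the authors had divided by 1 size factor per library, from which whole reads were recovered for 100% of values (tolerance 0.001 reads). Deposited fold changes and p-values of the authors' comparisons were not used, and 28 rows carry dates in place of symbols. Count groups were tested with edgeR 4.0.16 (quasi-likelihood, TMM, filterByExpr, minimum count 10), and comparisons with N+PD24 with limma 3.58.1 (trend) on log2(CPM + 0.5) for genes at 0.5 CPM or more in at least 3 libraries (R 4.3.3). Intervals of fold changes used the t quantile at each test's own degrees of freedom. P-values were Benjamini-Hochberg adjusted over all genes tested, with DESeq2 1.42.0 as an alternative. Tests were checked on simulated counts with 1 setting of spread for all genes and no replicate effects. Changes were placed only in genes above a floor of reads. That check does not cover members with wider spread or few reads. Deviations of same-numbered libraries from their group means correlated above 0.1 in every pair for N+PD30 with PD30 (0.197 to 0.663), N+PD24 with Nutlin (0.408 to 0.652) and N+PD24 with PD24 (0.204 to 0.485), so replicate numbers were taken to pair these. Positions come from GENCODE on GRCh37. Members and lists were chosen with earlier results of these data known. All 10 members are named, and per comparison up to 3 listed genes with the largest change past the test, beside survival proteins picked after their values were seen.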

Additional observations from a re-analysis of the deposited data

Results flagged for a closer look

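For 3 of 10 members the Nutlin response differed between cells with and without PD0332991 by the test of the difference itself (edgeR, interaction over 12 libraries). Of all genes tested, 19.8% passed this interaction, 12.8% with a positive value. PMAIP1 had an interaction of 1.60 (adjusted p = 0.016), from -0.83 in Nutlin against DMSO to 0.73 in N+PD30 against PD30. The value of 0.73 did not pass by itself without the replicate block (edgeR, adjusted p = 0.19). BAK1 had 0.78 (adjusted p = 0.0060), from 0.19 to 0.92. BCL2L11 had 1.23 (adjusted p = 0.0058), from -1.04 to 0.14. Its level in PD30 was already 1.14 to 1.33 CPM, on 36 to 48 reads per library. Leaving out any 1 library kept all 3 past the threshold, with values of 1.23 to 2.08 for PMAIP1, 0.68 to 0.92 for BAK1 and 1.10 to 1.33 for BCL2L11.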

How the results depend on the processing

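Of 1263 member values under other settings, 1180 kept their direction and side of the threshold, 23 lost a call, 27 gained one and 33 changed sign, of which 29 came from leaving out 1 library. No called value changed sign. Requiring in addition a log2 fold change over 1 left 2 members in PD24 against DMSO, 2 in N+PD30 against PD30 and 1 in N+PD24 against Nutlin. The replicate block called 7, 5 and 5 members in the paired comparisons (N+PD30 with PD30, N+PD24 with Nutlin, N+PD24 with PD24), and over all genes 4439 against 2183, 8291 against 5355 and 7714 against 5503. Elsewhere the numbers are shared but not shown to pair libraries. Between those pairs of groups, 2 to 4 of 6 libraries correlated best with their own number. N+PD30 with PD30 also had 4 of 6, so this count does not set it apart, whereas N+PD24 with Nutlin and with PD24 had 6 of 6. Where pairing was not shown, the block added PMAIP1 in PD30 (edgeR, adjusted p = 0.046), BMF in PD24 (0.047) and BMF in the interaction with PD30 (-0.94, adjusted p = 0.022). Over 93 member values the block removed no call. Other lost calls were BIK in PD30 with DESeq2 (-1.22), PMAIP1 in PD24 (adjusted p = 0.14) and BAD in N+PD30 against PD30, both in 1 fit over 5 groups.

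Without 1 library at a time, the members called ranged from 4 to 5 in Nutlin and in PD30 against DMSO, 3 to 5 in PD24 against DMSO, 5 to 7 in N+PD30 against Nutlin, 4 to 5 against PD30, 1 to 3 in N+PD24 against Nutlin, 2 to 3 against PD24, 2 to 4 in N+PD30 against N+PD24, 3 to 4 for the interaction with PD30 and 0 for that with PD24. The count of 3 came without DMSO replicate 2 or 3, and the count of 1 without N+PD24 replicate 1 or 2. Without any 1 of the N+PD24 libraries, too few libraries were left at 0.5 CPM for HRK to be tested against Nutlin. Its call there was therefore not checked in those fits. Calls over all genes in the same fits are not set beside these ranges, so the ranges describe the members only. Calls gained this way were BAD in Nutlin (without Nutlin 1, adjusted p = 0.048), in N+PD30 against Nutlin (without Nutlin 2, 0.036) and against N+PD24 (without N+PD30 3, 0.049), BID in PD24 and in N+PD24 against PD24 (without PD24 3, 0.019 and 0.026), PMAIP1 and BMF in N+PD30 against PD30 (without PD30 3, 0.047, and without N+PD30 3, 0.011), BBC3 in N+PD24 against Nutlin (without Nutlin 1, 0.029, or N+PD24 3, 0.0069), BCL2L11 there (without N+PD24 3, 0.011) and in N+PD30 against N+PD24 (without N+PD24 1, 0.043), and BMF in the interaction with PD30 (without N+PD30 3, 0.047).

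Library totals in place of TMM shifted members by a median of -0.12 in Nutlin against DMSO, and moved the share of higher among all called genes there from 48.7% to 36.7%, from 61.1% to 43.8% in N+PD30 against PD30, from 39.2% to 28.6% in N+PD24 against PD24 and from 52.2% to 63.2% in N+PD30 against N+PD24. BID in N+PD24 against PD24 gained a call (-0.43, adjusted p = 0.047) and BAD changed sign (-0.069). BAK1 there passed with edgeR on recovered reads (0.35, adjusted p = 0.041). BMF in Nutlin against DMSO took values of -0.017 without the filter, -0.097 with library totals and -0.014 with the block, and -0.35 to 0.29 without 1 library. Other sign changes without 1 library were, in Nutlin against DMSO, BID (-0.23 to 0.027); in PD30, BBC3 (-0.60 to 0.23), BAD (-0.34 to 0.091) and BAK1 (-0.071 to 0.18); in PD24, BBC3 (-0.65 to 0.050), BIK (-0.11 to 0.11) and BAD (-0.19 to 0.60); in N+PD24 against Nutlin, BID (-0.043 to 0.19), BAD (-0.38 to 0.18), BMF (-0.22 to 0.25) and PMAIP1 (-0.47 to 0.0064); in N+PD24 against PD24, HRK (-0.31 to 0.17) and BAD (-0.35 to 0.40); and in the interactions, HRK (-0.15 to 0.66 with PD30, -0.085 to 0.39 with PD24) and BAD (-0.69 to 0.054 with PD24). The causes were not tested. Depth limits HRK and BIK: HRK in Nutlin against DMSO had a pooled ratio of 0.470 (95% exact interval 0.177 to 1.14), and BIK had 2 to 16 reads per library. It also limits BMF and BCL2L11 in N+PD30, where libraries held 9 to 63 and 14 to 40 reads of them.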

Other observations

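Over the 18 libraries, and among 14460 genes, the profiles nearest to BAX by Pearson r of log2(CPM + 0.5) were CDKN1A (0.986), XPC (0.985) and CDH10 (0.980). For BBC3 they were MICALL1 (0.969), PRDM1 (0.949) and ZFPM1 (0.948). PMAIP1 had more distant neighbours, PTGS2 (0.867), MIER1 (0.841) and NANP (0.826). BBC3 and BAX had an r of 0.890 with each other, and PMAIP1 had 0.0221 with BBC3 and -0.28 with BAX. These libraries share groups, so the values are descriptions over treatments.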
